A study of Mus musculus with 4 samples.

Results

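The genes described here are 8 SR splicing factors (Srsf1, Srsf2, Srsf3, Srsf4, Srsf5, Srsf6, Srsf7 and Srsf10) and Mettl23 and Mfsd11, the genes on the other strand at the Srsf2 locus. They are 10 of the 50600 genes in the tables and were chosen by name, with earlier values of these libraries known, so their levels are given as a description. Features on the other strand from the factors were then looked for by exon coordinates, with at least 50 shared exon bases, which added 2 genes, Gm12992 opposite Srsf4 and Gm11508 opposite Srsf1. The measurements are fragment counts per gene in 4 RNA-seq libraries of T-helper 2 cells, CD4 T cells that are known for making interleukin-4. All libraries belong to 1 group, biological replicates 1 to 4 of primary cells from C57BL/6NJ mice, and there is no other cell type, treatment or control. The labels give the same donor record for all 4 libraries and do not say whether separate mice were used, so a p-value reflects the spread between these 4 samples alone, part or all of which may be technical. Age and sex of the mice are not stated in the labels.

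SR proteins carry RNA recognition motifs and a tail rich in arginine and serine. They bind enhancer sequences within exons and help the U1 particle and U2AF to recognise the splice sites beside them. They are phosphorylated by the SRPK and CLK kinases, and the transportin Tnpo3 carries them into the nucleus. Many SR genes also hold poison exons, whose inclusion sends the transcript to nonsense-mediated decay. Activated T cells change the splicing of many transcripts, that of the CD45 gene Ptprc being a well-known example.

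Libraries held between 1804217 and 2711948 counts, and 12398 to 14083 genes had at least 1 count. The counting used a strand setting that accepts fragments on 1 strand only. Genes with exon bases in common with an opposite-strand gene, 8189 of the 50600, held 92.2% to 95.9% of the counts. Mitochondrial mt-Nd6, the coding gene of the light strand, had 6.13 to 8.79 times the counts of the heavy-strand coding genes together. A count is therefore given as a count on the strand that was selected, and is not read as expression of the gene. The labels do not give which strand the kit marks. If it marks the one opposite to the setting, the fragments counted for a gene come from the other strand. This includes those of Mettl23 and Mfsd11 at Srsf2. The levels, ratios and order below would then not be those of the named genes. The 5 factors that share no exon base with the other strand have no annotated gene overlapping them there. The same caution holds for their counts, whose origin was not tested. The ribosomal RNA gene CT010467.1, which is among the genes that share exon bases, varied between libraries. It took 1.02% and 1.14% of the counts in replicates 1 and 2, against 28.6% and 14.4% in replicates 3 and 4. Replicate 4 stood apart: of 2115 genes with no shared exon bases and at least 10 counts in each other library, 55.9% lay more than 1 lower there in log2 CPM, the count scaled to the library total. The same share was 1.51%, 1.66% and 7.27% for replicates 1, 2 and 3, each set against its other libraries. Between libraries the chi-square per degree of freedom was highest for replicates 1 and 3, at 94.3, but without CT010467.1 it was 16.7 to 17.9 for pairs with replicate 4 and 2.48 to 4.30 for the other pairs. Of the 8 T cell markers, 8 had a count, with sums of 1120 to 1465 per library, most of the counts in Cd247, which shares 3007 exon bases with Pou2f1. Th2 markers summed to 233 to 393, of which Ptgdr2, which shares 1031 exon bases with Ccdc86, held 170 to 223, and Il5 and Il13 had 1 count each over all libraries. Tbx21, Cd8a, Ms4a1, Cd79b, Lyz2, Itgam, Adgre1, Ncr1, Klrb1c, Hbb-bs and Hba-a1 had 0 counts. Sums ran from 0 to 1 for the Th1 list, 1 to 3 for Th17 and 3 to 4 for CD8, and the B cell gene Cd79a had 9 to 15 counts. Counts of other cells' markers lay mainly in Csf1r, with 983 to 1026, and Alas2, with 31 to 39, both of which overlap exons of an opposite-strand gene. In bulk RNA such as this, fewer cells of a type and less RNA per cell cannot be told apart.

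At the Srsf2 locus 3 genes share exon bases. Srsf2 lies on the minus strand at chr11:116849901-116853094 (mm10), and Mettl23, at chr11:116843278-116854263, and Mfsd11, at chr11:116852440-116875635, lie on the plus strand. Mettl23 shares 460 exon bases with Srsf2, near the end of the Srsf2 exons, with their centre at 92.2% of the exon length. These bases lie outside the Srsf2 coding sequence, and of the 8 Mettl23 transcripts in GENCODE M21 only 1, a retained-intron form, covers them. Mfsd11 shares 288 exon bases near the Srsf2 start, with their centre at 12.9%, all of them within the Srsf2 coding sequence. They belong to 1 of 12 Mfsd11 transcripts, a form marked for nonsense-mediated decay, and lie before the Mfsd11 starts of RefSeq. Mettl23 and Mfsd11 also share 257 exon bases with each other on the same strand, where a fragment cannot be given to 1 of them by position alone. Srsf1 (chr11:88047373-88053755, plus strand) shares 98 bases with Gm11508 (chr11:88011991-88048006, minus strand), centred at 10.2% of its exons and wholly within its coding sequence. Srsf4 (chr4:131873617-131901706, plus strand) shares 1532 bases with Gm12992 (chr4:131899478-131920029, minus strand), centred at 78.5%, of which 895 are coding. The other 5 factors share no exon base with the other strand. The sequences below are exon bases that a factor and its opposite feature have in common. Counts are per gene and do not place fragments within them. The sequences are read along the factor's own strand from the GENCODE M21 transcripts (GRCm38, the same assembly). The first is the whole Srsf1 part, the second the first coding block of the Srsf4 part, and the third the first bases of the Srsf2 part that Mfsd11 covers. All 3 code for protein and are printed in lower case because no letter is singled out.
Srsf1 with Gm11508, chr11:88047909-88048006, plus strand: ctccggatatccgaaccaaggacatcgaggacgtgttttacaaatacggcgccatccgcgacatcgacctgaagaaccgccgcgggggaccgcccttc
Srsf4 with Gm12992, chr4:131900062-131900151, plus strand: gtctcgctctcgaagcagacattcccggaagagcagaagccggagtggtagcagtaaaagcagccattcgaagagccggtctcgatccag
Srsf2 with Mfsd11, chr11:116852826-116852855, minus strand: ctcgcccgacaccctgaggcgcgtcttcga

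**Figure D1:**
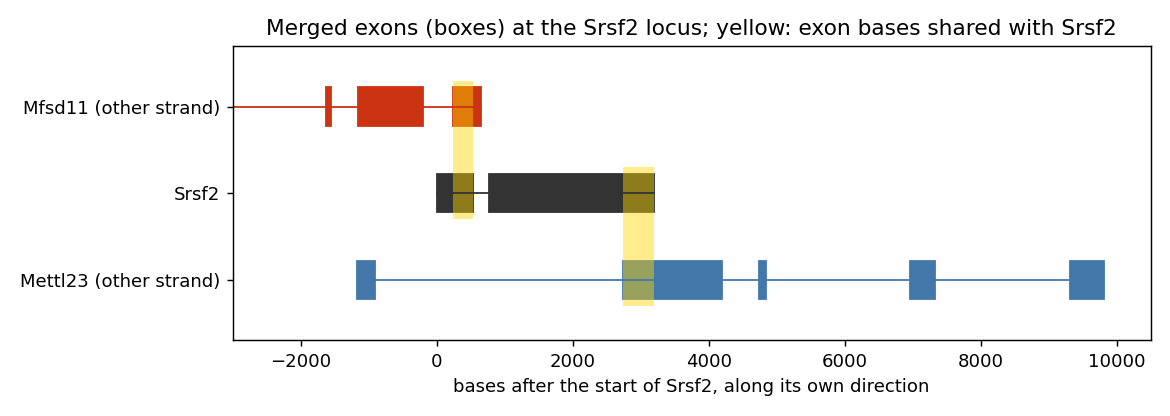
Merged exons (boxes) of Mfsd11, Srsf2 and Mettl23 at the Srsf2 locus, drawn to scale against bases after the Srsf2 start along its own direction, with Mfsd11 running on past the left edge. Yellow marks the exon bases shared with Srsf2, 288 with Mfsd11 near the Srsf2 start and 460 with Mettl23 near its end.

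Srsf2 and Mfsd11 start on opposite strands, pointing away from each other, and the first RefSeq start of Mfsd11 lies 668 bases from that of Srsf2. The promoters are shown because the Mfsd11 form that overlaps Srsf2 exons spans both starts. Each is given along its gene's strand from RefSeq (GRCm38.p6), with the 250 bases before the start in lower case and the first 50 bases of the transcript in capitals.
Srsf2 promoter, chr11:116853045-116853344, minus strand: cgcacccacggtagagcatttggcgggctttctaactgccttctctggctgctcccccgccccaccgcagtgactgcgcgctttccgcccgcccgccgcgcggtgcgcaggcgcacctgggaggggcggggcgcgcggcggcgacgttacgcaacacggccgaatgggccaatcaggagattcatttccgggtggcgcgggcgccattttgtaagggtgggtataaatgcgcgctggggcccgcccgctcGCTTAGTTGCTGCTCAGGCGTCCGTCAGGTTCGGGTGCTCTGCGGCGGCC
Mfsd11 promoter, chr11:116853512-116853811, plus strand: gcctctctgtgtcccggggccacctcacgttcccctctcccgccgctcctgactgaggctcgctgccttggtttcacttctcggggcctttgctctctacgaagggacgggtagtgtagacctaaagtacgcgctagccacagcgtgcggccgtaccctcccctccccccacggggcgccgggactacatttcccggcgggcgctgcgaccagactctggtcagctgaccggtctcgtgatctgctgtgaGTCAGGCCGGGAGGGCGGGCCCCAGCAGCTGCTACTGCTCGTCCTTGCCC
The Srsf2 promoter held 39 CG dinucleotides and that of Mfsd11 25, against a median of 7 over 32851 promoters of the same length, and 96.1% of these had no more than Srsf2. CCAAT, read on both strands, was found in the Srsf2 promoter and in 37.4% of all promoters. TATAAA, read on both strands, was also found there, and in 13.6% of all promoters. These are matches of letters and were not tested as binding sites.

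The features opposite the factors had far more counts than the factors. Mettl23 (ENSMUSG00000090266), a methyltransferase-like protein, had 12500, 12337, 12443 and 11931 counts in replicates 1 to 4. Its libraries lay close together, at 12303 ± 257 counts (SD, n = 4), and it ranked 10 by mean count among 50600 genes. Mfsd11 (ENSMUSG00000020818), a membrane protein of the major facilitator superfamily, had 5584, 6650, 6730 and 16666 counts. Replicate 4 stood above the others, at 2.64 times their mean. In TPM, the count per exon base rescaled to the same sum in each library, Mfsd11 averaged 886 ± 471 TPM (SD, n = 4), and 653 ± 86.6 TPM without replicate 4 (n = 3). Gm12992 (ENSMUSG00000085667), the feature opposite Srsf4, had 7737, 8094, 8272 and 9430 counts. Gm11508 (ENSMUSG00000086193), the feature opposite Srsf1, had 3179, 3588, 3726 and 6191 counts. Both were highest in replicate 4 in counts, at 1.17 and 1.77 times the mean of the others. By mean count Mfsd11 ranked 16, Gm12992 19 and Gm11508 54. Per exon base the order differed, with Gm11508 at 6724 ± 1908 TPM, Mettl23 at 3286 ± 482 TPM and Gm12992 at 1023 ± 116 TPM (SD, n = 4). Gm11508 has only 440 exon bases, fewer than any other gene described at these loci.

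**Figure D2:**
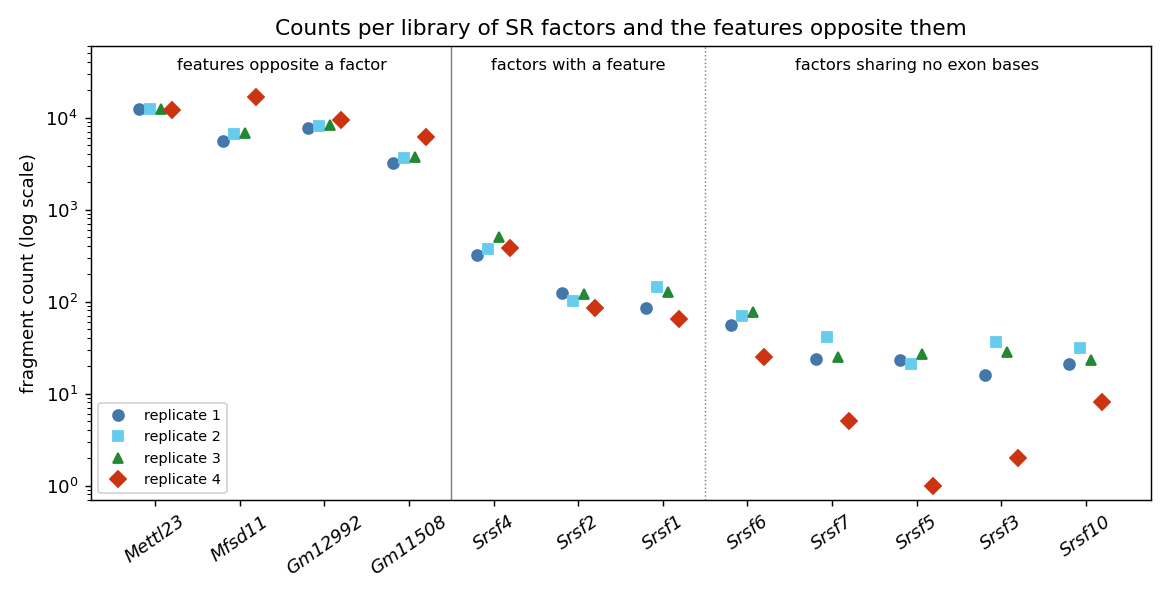
Counts per library on a log axis for the 12 genes, with the 4 features on the other strand at the left and the 8 factors at the right; each point is 1 replicate. The 4 features lie between 3179 and 16666 counts, and each factor lies at 497 or lower in every library.

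Srsf4 (ENSMUSG00000028911), an SR protein with a pair of RNA recognition motifs, was the highest factor in counts on the selected strand. It had 322, 368, 497 and 384 counts and averaged 78.0 ± 5.88 TPM (SD, n = 4). Its libraries lay between 72.5 and 84.1 TPM, a narrow range beside the other factors. Srsf2 (ENSMUSG00000034120), also known as SC35 and a marker of nuclear speckles, followed with 123, 102, 122 and 86 counts and 26.4 ± 5.90 TPM. Srsf1 (ENSMUSG00000018379), the factor first described as SF2/ASF, had 85, 144, 127 and 64 counts and 13.3 ± 5.15 TPM. The 3 factors at the top of this order are those with a feature on the other strand. Srsf6 (ENSMUSG00000016921, chr2:162931528-162937121, plus strand), a close relative of Srsf4, had 56, 69, 77 and 25 counts and 8.49 ± 3.44 TPM. Srsf7 (ENSMUSG00000024097, chr17:80200089-80207305, minus strand), which carries a zinc knuckle and serves as an export adaptor, had 24, 41, 25 and 5 counts and 7.72 ± 5.28 TPM. Both were lowest in replicate 4. Srsf5 (ENSMUSG00000021134, chr12:80945504-80950507, plus strand), a further relative of Srsf4, had 23, 21, 27 and 1 counts and 3.28 ± 2.09 TPM. Srsf3 (ENSMUSG00000071172, chr17:29032673-29043366, plus strand), a small SR protein that also serves in mRNA export, had 16, 36, 28 and 2 counts and 2.92 ± 2.20 TPM. Srsf10 (ENSMUSG00000028676, chr4:135855747-135869908, plus strand), a factor that represses splicing when dephosphorylated, had 21, 31, 23 and 8 counts and 2.17 ± 1.14 TPM. In Srsf3 and Srsf5 the replicate 4 counts did not exceed 3, the limit that a count of 0 allows.

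In TPM on the selected strand, the order of the factors was Srsf4, Srsf2, Srsf1, Srsf6, Srsf7, Srsf5, Srsf3 and Srsf10. It is not read as an order of expression. Differences between neighbours were set against their SD over the 4 libraries. Srsf4 exceeded Srsf2 by 51.6 ± 8.40 TPM, Srsf2 exceeded Srsf1 by 13.1 ± 6.07 TPM, and Srsf1 exceeded Srsf6 by 4.76 ± 2.64 TPM, each in 4 of 4 libraries. Srsf7 exceeded Srsf5 by 4.45 ± 3.90 TPM in 4 of 4 libraries. The differences of Srsf6 and Srsf7 (0.767 ± 2.59 TPM), of Srsf5 and Srsf3 (0.353 ± 1.49 TPM) and of Srsf3 and Srsf10 (0.751 ± 1.17 TPM) were smaller than their SD. Without replicate 4 the 8 means ran from 2.64 TPM for Srsf10 to 79.8 TPM for Srsf4, and none of the 12 genes moved by 1.5 times. In the limma test of each gene's level against 1 TPM, 32.1% of 17203 genes with a count were called above it and 26.6% below it. Of the 10 members 7 were above, and Srsf3, Srsf5 and Srsf10 were not called. Nothing is read from that count, since the members were chosen with these levels known.

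Within a library, each feature set had more counts than its factor. Mettl23 and Mfsd11 together had 147, 186, 157 and 333 times the counts of Srsf2 in replicates 1 to 4. Replicate 4 was highest, and the mean was 206 ± 86.2 (SD, n = 4), with 196 for the summed counts (95% exact conditional interval 178 to 216). Gm11508 had 37.4, 24.9, 29.3 and 96.7 times the counts of Srsf1. Again replicate 4 was highest, with a mean of 47.1 ± 33.5 over all libraries and 30.6 without replicate 4, and 39.7 for the summed counts (36.1 to 43.9). Gm12992 had 24.0, 22, 16.6 and 24.6 times the counts of Srsf4. These ratios lay closer together, with a mean of 21.8 ± 3.61 and 21.3 for the summed counts (20.3 to 22.5), and replicate 3 was lowest. The intervals cover counting error only. The features exceeded the factor in each library for 3 of 3 factors, and for 42.1% of the 6146 genes that have such features and a count. Both genes of a pair can enter these 6146, which holds that share down. The Srsf2 locus was chosen with its values known, so nothing about SR factors is read from the contrast. Among the 12 genes of the fixed splicing lists with a feature, 9 were exceeded in each library. Of these pairs, Srr had 6599, 6342, 6498 and 5931 counts opposite the decay factor gene Smg6, which had 28, 28, 40 and 26. The reverse held for Kmt2e, with 43, 42, 40 and 37 counts opposite the kinase gene Srpk2, which had 280, 240, 424 and 451, and for Plekhj1 opposite Sf3a2. Cers1, with 75, 82, 74 and 65 counts, exceeded Upf1 in replicates 1 to 3 but not in replicate 4. Mettl23 also shares 172 exon bases with Jmjd6, which had 15, 24, 23 and 12 counts. Srsf2 was therefore not the only gene opposite Mettl23, whereas Mfsd11, Gm11508 and Gm12992 each had 1 partner.

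For the 5 factors without shared bases, the nearest genes on the other strand had few counts or lay apart. Pnrc2, which lies 1010 bases downstream of Srsf10, had 22, 19, 21 and 21 counts, close to the 21, 31 and 23 of Srsf10 in replicates 1 to 3 and above its 8 in replicate 4. Ttc39d, 155 bases upstream of Srsf7, had 0, 1, 0 and 1 counts, and Gm20337, 108 bases upstream of Srsf5, had 1, 0, 0 and 0. Trp53cor1, 14108 bases downstream of Srsf3, had 1 count in all, and Gm11451, 32005 bases upstream of Srsf6, had none. The neighbours of Srsf5 and Srsf7, though close, thus had at most 1 count in a library. At Srsf1 the gene 2010015M23Rik, 13 bases upstream and sharing no exon base, had 16, 12, 35 and 22 counts.

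Replicate 4 divided these genes. In log2 CPM, replicate 4 minus the mean of replicates 1 to 3 was 1.34 for Mfsd11 and 0.77 for Gm11508, and 0.17 for Gm12992. It was -0.12 for Mettl23 and -0.08 for Srsf4. The last pair changed sign with the scaling, to 0.10 and 0.14 with TMM factors, while Mfsd11 lay between 1.34 and 1.56 and Gm11508 between 0.77 and 0.98 under 5 scalings. Over the 5463 genes that had 10 or more counts in all of replicates 1 to 3, the median was -0.20 in CPM and 0.01 with TMM, a shift of 0.22. Relative to that median Mettl23 and Srsf4 thus lay near the middle of all genes. Srsf2 lay at -0.48 and Srsf1 at -0.91. The 5 factors without shared bases lay lower, at -1.46 for Srsf6, -1.62 for Srsf10, -2.49 for Srsf7, -3.43 for Srsf3 and -4.06 for Srsf5. A deviation of more than 1 downward was seen in 5 of 8 factors, median -1.54, and in 28% of the 5463 genes. Genes were kept by their counts in replicates 1 to 3, which favours those lower in replicate 4. With a mean of at least 10 counts over all 4 libraries instead, the same 5 of 8 factors passed and the share was 27.5% of 6081 genes, with 3.27% more than 1 higher. All 5 factors without shared bases passed it, median -2.49, against 55.9% and a median of -1.24 for genes without shared bases, or 52.2% and -1.09 when kept by the mean. None of the 3 factors with a feature did, against 9.52% and a median of -0.06 for the 3150 genes with at least 50 shared bases. A deviation of more than 1 upward was seen in Mfsd11 and in none of the factors, against 2.16% of all genes, 1.18% of those without shared bases and 2.89% of those with at least 50. Mfsd11 stood above 99.0% of the 5463 genes, with 52 higher. It was chosen for this pattern, which is therefore a description.

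**Figure D3:**
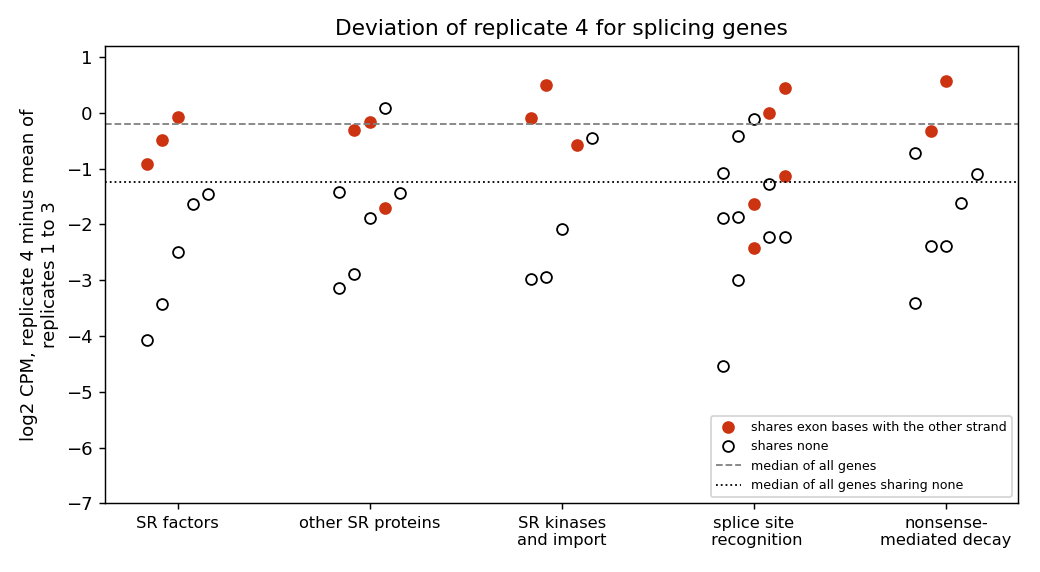
Replicate 4 minus the mean of replicates 1 to 3 in log2 CPM, for those SR factors and genes of the 4 splicing lists that had 10 or more counts in all of replicates 1 to 3; each point is 1 gene, filled where it shares at least 1 exon base with the other strand. The dashed line is the median of all genes (-0.20), the dotted line that of genes without shared bases (-1.24), and the 5 open points of the SR factors run from -1.46 to -4.06.

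Ratios between features within a library do not depend on the scaling. Mfsd11 over Mettl23 was 0.447, 0.539, 0.541 and 1.4 in replicates 1 to 4, so that Mfsd11 exceeded Mettl23 in replicate 4 only. Mfsd11 over Gm12992 was 0.722, 0.822, 0.814 and 1.77, and Gm11508 over Mettl23 was 0.254, 0.291, 0.299 and 0.519. In both, replicates 1 to 3 lay together and replicate 4 stood above them. Gm11508 over Gm12992 was 0.411, 0.443, 0.450 and 0.657, with replicate 4 highest again. Gm12992 over Mettl23 moved least, at 0.619, 0.656, 0.665 and 0.790. The share of counts in CT010467.1 was 1.02%, 1.14%, 28.6% and 14.4% in replicates 1 to 4, and its part in these ratios was not tested.

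**Figure D4:**
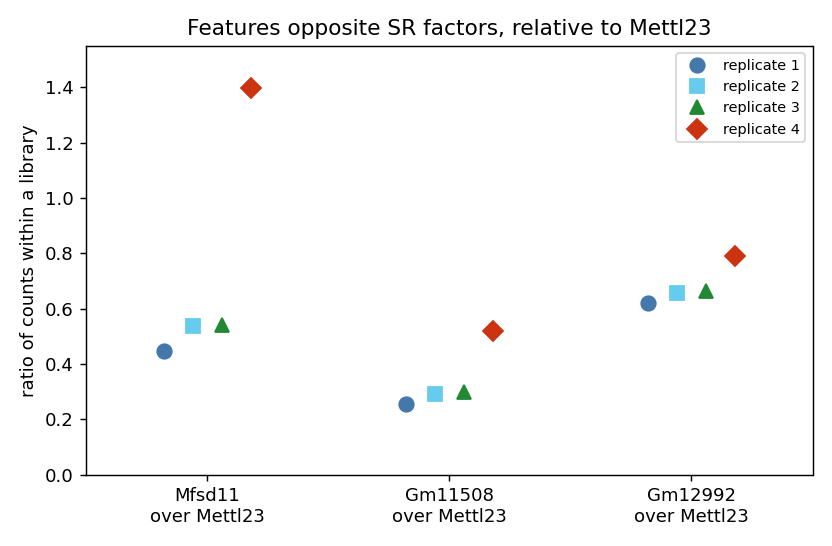
Ratio of the counts of Mfsd11, Gm11508 and Gm12992 to those of Mettl23 within each library, on a linear axis from 0; each point is 1 replicate. Replicate 4 is highest in all 3 ratios, at 1.4, 0.519 and 0.790, and above 1 only for Mfsd11.

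Mfsd11 and Gm11508 share bases near the start of their factor, and Mettl23 and Gm12992 near its end. Across all features with 1 gene opposite, the deviation of replicate 4 was therefore set against position along the exons of that gene. The median was 0.12 for 877 features centred in the first 20% of the exons. In the next 3 stretches of 20% it was -0.06, -0.09 and -0.11, and it was -0.14 for 685 features in the last 20%. A deviation above 1 was seen in 57 features of the first 20%, or 6.5% of them, and in 5 of the last, or 0.730%. The first stretch minus the last was 0.26 in median. Mfsd11 stood above 97.0% of the features of the first stretch, with 25 higher, and Gm11508 above 88.7%, with 98 higher. Mettl23, which has Jmjd6 opposite as well as Srsf2, is not itself in this set. Among features of the last stretch, its value stood above 53.4%, and that of Gm12992, whose own centre lies just before it, above 83.5%. Srsf2 is 1 of 176 genes with 1 feature before and 1 after the middle of the exons. The feature nearer the start deviated more in 111 of them, or 63.1%, with a median difference of 0.15 and quartiles of -0.19 and 0.58. At Srsf2 the difference was 1.46, rank 7 of the 176. These distributions describe the same 4 libraries from which the locus was chosen.

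**Figure D5:**
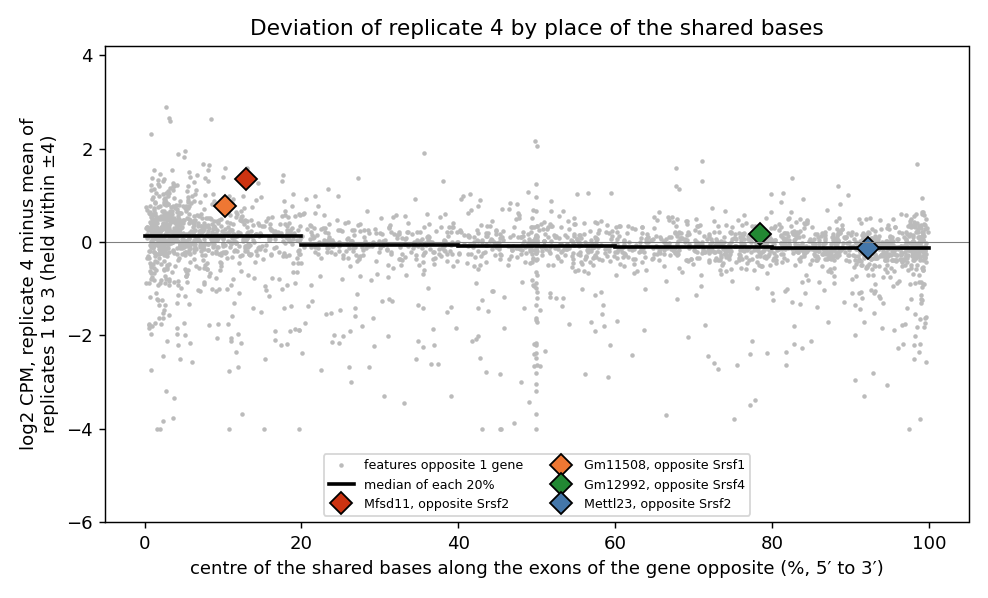
Deviation of replicate 4 in log2 CPM, held within 4 of 0, for each feature with 1 gene opposite (grey points), against the centre of the shared bases in percent of that gene's exons from start to end. Black lines are the medians of stretches of 20%, which run from 0.12 in the first to -0.14 in the last, and diamonds are the 4 features opposite SR factors, Mfsd11 highest at 1.34; Mettl23 has a further gene opposite and is not in the medians.

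Spread between replicates was tested for all genes with edgeR, by setting each gene's quasi-dispersion against the trend. After Benjamini-Hochberg adjustment 0 of 4190 genes were called (0%), and the smallest adjusted p was 0.153. At an unadjusted p under 0.05 there were 268, and with other tools limma-trend called 0 and DESeq2 marked 15 dispersion outliers. The filter on low counts kept 6 of the 10 members, Srsf1, Srsf2, Mettl23, Mfsd11, Srsf4 and Srsf6, and none was called. Mfsd11 had a dispersion of 60.1 times the trend (unadjusted p = 0.0016, edgeR adjusted p = 0.534). Its replicate 4 counts chose it, so this value is no independent evidence of spread. Gm11508 had an unadjusted p of 0.0112 and an edgeR adjusted p of 0.586. For the other 5 members the edgeR adjusted p lay between 0.930 for Srsf1 and 0.991 for Mettl23. Without replicate 4, 20 of the genes tested were called.

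Genes that work with the SR factors were taken from 4 lists, chosen with earlier results of these data known. Up to 4 genes highest in mean TPM are named per list. Their levels chose them, so their limma p-values are no independent evidence of a level above 1 TPM. Of 11 other SR proteins, 8 were above 1 TPM by limma with Benjamini-Hochberg adjustment and 2 were not called. Over all 17203 genes 32.1% were above and 26.6% below, and nothing is read from the counts of the chosen lists. Srsf12, with 1 count in all, was below, and left the test without replicate 2, the library of that count. The median of the list was 2.77 for the log2 ratio to 1 TPM, with 0.1 added to each value, against -0.35 for all 17203 genes. Acin1, which joins the exon junction complex, had 400, 381, 488 and 353 counts and 33.5 ± 4.30 TPM (SD, n = 4; limma adjusted p = 5.1e-09). Srsf9 had 51, 46, 53 and 55 counts and 22.2 ± 2.34 TPM (adjusted p = 2.1e-08), and Son, a scaffold of nuclear speckles, had 20.5 ± 2.7 TPM (adjusted p = 3.4e-08). These 3 differed little between libraries. Srsf11 had 185, 202, 195 and 74 counts and 14.1 ± 5.91 TPM (adjusted p = 8.4e-06), with replicate 4 lowest. Acin1 and Son share exon bases with the other strand, and Srsf9 and Srsf11 do not. Srsf9 deviated by 0.08 in replicate 4 and Srsf11 by -1.44, so that Srsf9 did not follow the 5 low factors.

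Of 10 genes for SR kinases and import, 3 were above 1 TPM, near the 32.1% of all genes, none was below and 7 were not called by limma, with a median log2 ratio of 0.74. Without replicate 4, 5 were above, and 9 were above 1 CPM, which is not scaled by length. Clk3, a kinase of SR proteins, had 207, 185, 253 and 208 counts and 18.0 ± 1.42 TPM (limma adjusted p = 4.7e-08). Srpk2 had 17.6 ± 3.43 TPM (adjusted p = 1.1e-07) and was higher in replicate 4, by 0.50 in log2 CPM. Both share exon bases with the other strand, Clk3 with Edc3 and Srpk2 with Kmt2e. Srpk1, without shared bases, had 41, 29, 46 and 9 counts and 2.33 ± 1.22 TPM (adjusted p = 0.113). Tnpo1, a transportin other than Tnpo3, had 42, 48, 34 and 5 counts and 2.80 ± 1.83 TPM (adjusted p = 0.156). Neither was called, and both were lowest in replicate 4.

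Of 16 genes of splice site recognition, 12 were above 1 TPM by limma, against 32.1% of all genes. None was below and 4 were not called, with a median log2 ratio of 2.87. Sf3a2, a subunit of the U2 particle, had 717, 788, 948 and 1154 counts and 240 ± 35.5 TPM (limma adjusted p = 3.8e-11). Snrnp70, the U1 protein that SR proteins contact, had 265, 279, 337 and 283 counts and 27.2 ± 1.80 TPM (adjusted p = 7.2e-09). Snrpa, also of U1, had 19.2 ± 1.71 TPM (adjusted p = 3.5e-08). All 3 were above Srsf1 in mean TPM, and Snrnp70 shares no exon base with the other strand. Luc7l3 had 193, 244, 376 and 58 counts and 21.1 ± 11.2 TPM (adjusted p = 0.0001), with replicate 4 lowest. Of 10 genes of nonsense-mediated decay, 6 were above, against 32.1% of all genes, none was below and 4 were not called. The median was 1.21, and without replicate 3 only 3 were above. Upf1, the helicase of the pathway, had 45, 50, 63 and 81 counts and 9.13 ± 1.80 TPM (limma adjusted p = 2.9e-06). Its partners were lower, with Upf3b at 6.86 ± 3.71 TPM (adjusted p = 0.0020), Upf2 at 4.65 ± 2.08 TPM (0.0018) and Upf3a at 2.69 ± 0.895 TPM (0.0147). Upf1 was highest in replicate 4, and these 3 were lowest there. Over the 4 lists, 21 of 26 genes without shared bases lay more than 1 lower in replicate 4, median -1.88, and 3 of 12 with at least 50 shared bases did so, median -0.24. Over all genes these shares were 55.9%, median -1.24, and 9.52%, median -0.06. In the edgeR test of spread, 26 genes of the lists passed the filter and 0 were called, with 4 at an unadjusted p under 0.05. Over all 4190 genes of that test 0 were called and 268 had an unadjusted p under 0.05.

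The genes nearest to Mfsd11 and to Mettl23 over the 4 libraries were found by the distance between centred log2 CPM profiles, among the 4190 genes of the spread test. Nearest to Mfsd11 were 1700034H15Rik (distance 0.0469; 51, 60, 60 and 156 counts), Cnbd2 (0.0680; 389, 479, 455 and 1183 counts) and Gm42922 (0.10; 108, 120, 132 and 328 counts), against a median distance of 1.28. All 3 were highest in replicate 4, which follows from the choice by profile, and each shares exon bases with the other strand. Of the 5463 genes with 10 or more counts in all of replicates 1 to 3, 3150 share at least 50 such bases. Nothing is therefore read from the sharing in these genes or those below. 1700034H15Rik shares 468 with Slc30a1, centred at 10.04% of its exons, and Gm42922 shares 710 with Spry1, centred at 12.2%. Cnbd2 shares 307 with Scand1, centred at 20.2%, and 526 with Gm14252, centred at 28.5%. Nearest to Mettl23 were Gm26533 (0.0212; 1332, 1289, 1320 and 1264 counts), ENSMUSG00000085425 (0.0251; 3681, 3616, 3703 and 3466 counts) and 1700060J05Rik (0.0269; 63, 62, 62 and 61 counts), against a median of 0.447. Their counts differed little between libraries, and they share exon bases with Ammecr1l, Ube2l3 and Slc44a1, centred at 53.9%, 81.6% and 46.3%. Likeness over 4 libraries of 1 group is a description and says nothing of shared function.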

How the data were processed

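The authors deposited raw fragment counts for each gene, made with featureCounts version 1.4.6-p4 over exons of GENCODE M13 on mm10, per the file headers, with both ends aligned, strand setting 1 and no option for fragments that overlap several genes. The alignments are named star2, with no version. The assay is total RNA-seq per the labels, which link a library protocol titled for poly(A) RNA, and paths in the headers name 24 hours.

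From the counts, CPM and TPM (count over exon length, rescaled) were computed. The level of each gene with a count was set against 1 TPM by limma's moderated test (version 3.58.1, two-sided, log2(TPM + 0.1)). Spread was tested with edgeR 4.0.16 (intercept only, TMM factors, its default filter). Both used Benjamini-Hochberg adjustment at 0.05 over all genes tested. Both were also run on simulated counts with the same dispersion for all genes. That run does not show what spread could be detected in these libraries. Deviations are log2 CPM with a prior of 0.5. Intervals came from scipy 1.17.1 under Python 3.11.15, and other dispersion fits from DESeq2 1.42.0 under R 4.3.3. Symbols matched 50376 of 50600 gene IDs, and the M21 annotation gave transcripts and coding sequence. Depth was 1804217 to 2711948 counts, and the floor of 3 counts below which 0 cannot be told from presence came to 1.11 to 1.66 CPM.

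Members and lists were chosen with earlier results of these data known. Genes named are the 10 members, features sharing at least 50 exon bases with them, up to 4 genes highest in TPM per list, and the 3 nearest in profile to Mfsd11 and Mettl23. Neighbours on the other strand, and partners of listed genes, were named after their values were seen. Alternatives were other levels, filters, scalings, tools and overlaps, and each replicate left out. The choices for position along the exons the means without replicate 4, the other choice of genes for deviations and the pairs without CT010467.1 were chosen after seeing the data.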

Additional observations from a re-analysis of the deposited data

Results flagged for a closer look

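Of 28 genes examined, 2 had 1 library far from the other 3 in CPM, and chance flags about 1 in 20. Gm12992, opposite Srsf4, was lowest in replicate 3, at 3050 CPM, against 4288, 4384 and 4346 CPM in replicates 1, 2 and 4. CT010467.1 held 28.6% of the counts of replicate 3, and its part in this was not tested. In counts Gm12992 was not lowest there, at 8272. Upf3b, a factor of nonsense-mediated decay, was lowest in replicate 4, at 4.15 CPM, against 21.6, 21.7 and 24.7 CPM in replicates 1, 2 and 3. Mfsd11 was not among the 2.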

How the results depend on the processing

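The 3 factors with a feature kept more counts in that feature under all alternatives that gave a value, but with at least 200 shared bases Srsf1 has no feature. Per exon base, the mean ratio was 611 for Srsf1 and 13.2 for Srsf4. With features opposite no other gene, Srsf2 had 89.9, from Mfsd11 alone, and 55.3 of this kind without replicate 4. Without 1 replicate the ratios ran from 30.6 to 54.5 for Srsf1, 163 to 225 for Srsf2 and 20.9 to 23.5 for Srsf4. Genes above 1 TPM numbered 4902 to 6452 where that level was kept, against 4467 above 2 TPM and 7504 above 1 CPM. Genes below numbered 13 with a mean count of at least 10, since low genes then leave the test, 7779 against 2 TPM, and 2410 to 2928 without 1 replicate, where fewer samples were fitted. Genes called for spread with edgeR numbered 345 with no filter, 8 with a mean CPM of at least 1, and 0 to 20 without 1 replicate, the 20 without replicate 4, and DESeq2 marked 15. The cause was not tested. The first stretch of the exons exceeded the last in median deviation by 0.30 with stretches of 10%, 0.29 with at least 50 counts and 0.31 with at least 200 shared bases. The replicate 4 deviations of Mettl23 and Srsf4 changed sign to 0.10 and 0.14 with TMM, and that of Srsf4 was 0.00 with DESeq2 factors; no other direction changed in these alternatives. No paired analysis was possible because the series holds 1 group. Depth limits Srsf3, Srsf5, Srsf7 and Srsf10, whose counts did not exceed 41.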
